A study of Rattus norvegicus with 6 samples.

Results

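The miR-106a-363 and miR-106b-25 clusters are paralogs of miR-17-92, each a short run of miRNA hairpins on a different chromosome. The members were all entries of the count table named rno-miR-20b, rno-miR-363, rno-miR-106b, rno-miR-93 or rno-miR-25, with either arm of the hairpin. This gave 10 of the 753 listed mature miRNAs, 4 from miR-106a-363 (miR-20b and miR-363) and 6 from miR-106b-25 (miR-106b, miR-93 and miR-25). Small RNA of lumbar spinal cord was sequenced in rats with bone cancer pain (BCP) and in sham-operated rats on day 14, with 3 libraries in each group. The study calls them biological replicates, and each is called a rat here, although the sources used do not state whether it came from 1 animal or from pooled tissue. BCP rats had received living Walker 256 cells, a rat mammary carcinoma line grown as ascites in other rats, in the marrow cavity of the left tibia. Sham-operated rats had received heat-killed cells by the same surgery, so both groups were injected and no uninjected rats were included. The lumbar enlargement was taken from the injected side without its meninges. The labels give the strain as Wistar and the study's methods give female Sprague Dawley rats, and the age of the rats is not given in the sources used here.

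A miRNA hairpin is cut into a 5p and a 3p arm, and usually the arm that is loaded into Argonaute, the guide, accumulates while the other is degraded. The guide recognises mRNAs mainly through its seed, bases 2 to 8 from its 5′ end, so miRNAs with the same seed share many predicted targets. The miR-17-92 family is known for promoting proliferation and restraining apoptosis, with targets that include cell cycle inhibitors. The miR-106b-25 hairpins lie in an intron of Mcm7, a subunit of the replicative helicase, and are broadly expressed, whereas miR-106a-363 is X-linked and usually low in adult tissues.

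Of the arms of both clusters, 5 fell into 2 seed groups that each hold members of both clusters. RefSeq gave a mature sequence for 10 of 10 members. These 5, and the 3p arm of miR-106b, which is the more abundant arm of its hairpin, are shown 5′ to 3′ with the seed in capitals, because the seed is what pairs each miR-106a-363 guide with its miR-106b-25 counterparts.
rno-miR-20b-5p: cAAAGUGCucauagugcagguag
rno-miR-106b-5p: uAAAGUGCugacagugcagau
rno-miR-93-5p: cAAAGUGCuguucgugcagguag
rno-miR-363-3p: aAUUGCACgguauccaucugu
rno-miR-25-3p: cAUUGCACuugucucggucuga
rno-miR-106b-3p: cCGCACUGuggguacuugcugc
The last, the 3p arm of hairpin miR-106b, shared its seed with none of the other table entries that have a RefSeq sequence (687 of 753 entries have one). Counted from the 5′ end without gaps, rno-miR-20b-5p and rno-miR-106b-5p differed at 4 of 21 positions, C1U, C10G, U12C and G20A, where the base of rno-miR-20b-5p comes first. rno-miR-363-3p and rno-miR-25-3p differed at 13 of 21 positions, all but the first of them downstream of the seed. rno-miR-20b-5p was closest to rno-miR-20a-5p and rno-miR-17-5p of miR-17-92, each at 2 differences in 23 bases (C1U and C10U, and C10U and U12C). How reads that match more than 1 name were assigned is not stated, so the values of rno-miR-20b-5p are uncertain to that extent.

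RefSeq's rat assembly GRCr8, which is not the build of the deposited files (Rnor_6.0), places the hairpins miR-106b, miR-93 and miR-25 inside Mcm7 on chromosome 12, all on the minus strand. It places miR-106a, miR-20b, miR-19b-2, miR-92a-2 and miR-363, in that order of transcription, on the minus strand of chromosome X, with no annotated gene over them. In that annotation the miR-106a hairpin yields miR-17-5p and rno-miR-17-2-3p. The mature sequences of miR-17-5p, miR-19b-3p and miR-92a-3p are therefore shared between miR-106a-363 and the miR-17-92 locus on chromosome 15, and their reads cannot be told apart.

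Total counts were between 13464349 and 23770677 per library. The 7 neural and oligodendrocyte markers and 3 Hox-cluster miRNAs of the lumbar cord were all detected, and of these 10 none was called in either direction. Deviations between libraries of a group were related to the GC content of the miRNAs. Over the 427 tested miRNAs with a RefSeq sequence, the deviation of a library from the other 2 of its group correlated with GC content by Spearman's rho from -0.535 (BCP rat 3) to 0.574 (BCP rat 1). Sham-operated rats 2 and 3 also stood apart, at 0.535 and -0.487. The log2 fold change between groups correlated with GC content at -0.421 over the same miRNAs, which share their 6 libraries. Results are therefore also given after this trend had been removed from each library, a fit chosen after seeing the data. In bulk tissue a different number of cells and a different amount of RNA per cell cannot be told apart.

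rno-miR-363-3p, the guide of hairpin miR-363, was the member with the largest difference and was 2.85-fold higher in the BCP rats. Levels are given as CPM, the count scaled to library size after TMM normalization, and values of a group follow the order of its rats 1, 2 and 3. The BCP rats had 21.1, 31.6 and 34.3 CPM, from 497, 429 and 543 reads. The sham-operated rats had 10.5, 10.3 and 9.63 CPM, from 146, 157 and 144 reads. The groups did not overlap, and the spread was wider among the BCP rats. Its log2 fold change reached 1.51 (standard error, SE, 0.197, adjusted p = 0.00412 in the quasi-likelihood, QL, test of edgeR). A call needed a change past 0.8 in size on the log2 scale with adjusted p under 0.05, and it met both. It was the 1 member called of the 8 that passed the filter on low counts, where 3.49% of all 459 tested miRNAs were called higher. With each rat left out in turn its log2 fold change was from 1.36 to 1.68, and all 6 fits called it. With the GC trend removed it was 1.29 (SE 0.162, adjusted p = 0.00438, edgeR QL).

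rno-miR-20b-5p, the guide of hairpin miR-20b, had a fitted level 1.97-fold higher in the BCP rats, with an adjusted p just above the threshold. Its levels were 2.84, 3.90 and 3.98 CPM in BCP, against 1.87, 1.71 and 1.81 CPM in sham. The groups did not overlap. These levels rest on 67, 53 and 63 reads against 26, 26 and 27, and the exact 95% Poisson interval of the lowest BCP level (2.2 to 3.61 CPM) overlapped that of the highest sham-operated level (1.22 to 2.75 CPM). Such intervals cover counting error only, since the reads have no molecular identifiers. Each 100 reads of rno-miR-20a-5p came with 1.97, 1.89 and 1.81 reads of rno-miR-20b-5p in BCP, against 1.94, 2.16 and 1.40 in sham. That ratio overlapped between the groups. Whether reads of close names such as rno-miR-20a-5p and rno-miR-17-5p were counted as rno-miR-20b-5p was not tested. The log2 fold change came to 0.98 (SE 0.222, edgeR QL adjusted p = 0.052). With the GC trend removed it was 0.86 (adjusted p = 0.0473, edgeR QL), and that fit called rno-miR-20b-5p. Its p-values were adjusted over 427 miRNAs, so this adjusted p comes from a smaller set than the 0.052. Without BCP rat 1, the BCP library with the lowest level, the log2 fold change was 1.12 (adjusted p = 0.0366, edgeR QL), and that fit called it too. The fits that left out another rat did not call it, and over all 6 the adjusted p lay between 0.0366 and 0.227 (edgeR QL) and the log2 fold change between 0.88 and 1.12.

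The passenger arms of miR-106a-363 were near the limit of detection, and neither passed the filter on low counts. rno-miR-20b-3p had 9, 5 and 12 reads in BCP, against 2, 4 and 6 in sham. Its levels of 0.503 ± 0.222 and 0.27 ± 0.129 CPM (SD, n = 3 rats each) overlapped between the groups. rno-miR-363-5p had 2, 2 and 3 reads against 1, 5 and 2. At this depth, where 3 reads correspond to between 0.126 and 0.223 CPM, a difference in rno-miR-363-5p was not detectable. The arms of the other hairpins on chromosome X that carry a name of their own gave no more. rno-miR-92a-2-5p and rno-miR-19b-2-5p were listed at 0 in all 6 libraries. rno-miR-17-2-3p, the 3p arm of the miR-106a hairpin in RefSeq, had 6, 11 and 8 reads in BCP, against 14, 4 and 2 in sham, and the groups overlapped. The plot of levels by rat shows both guides apart from their passenger arms.

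**Figure D1:**
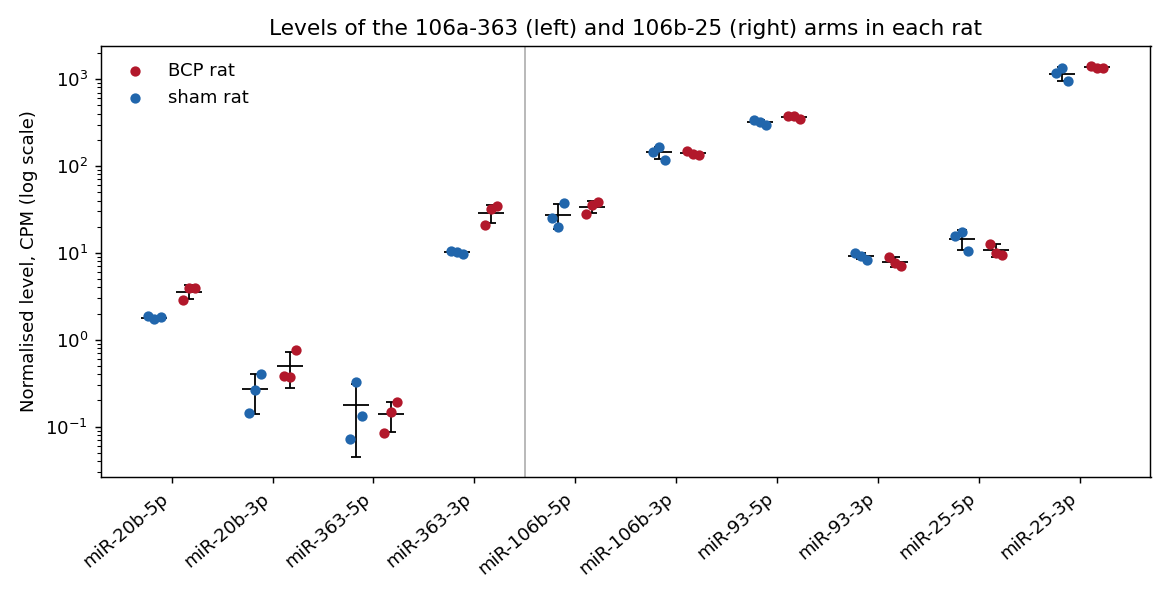
Normalised level of each of the 10 arms in CPM (log axis) in every rat, with BCP rats in red and sham-operated rats in blue. Black marks are the mean and SD of 3 rats. The BCP points lie above all sham points for miR-20b-5p, miR-363-3p and miR-93-5p, and the groups overlap for the other 7 arms.

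Of the 6 arms of miR-106b-25, all of which were tested, 0 were called in either direction by edgeR QL, and 0 had an unadjusted p below 0.05. Over all 459 tested miRNAs 60 had such a p and 3.49% were called, so nothing particular to these 6 arms is read from the counts. Their log2 fold changes were from -0.42 to 0.30, with a median of 0.08, against a median of -0.0034 over all tested miRNAs. DESeq2 and limma-voom also called 0 of the 6. rno-miR-25-3p, the guide of hairpin miR-25, was the most abundant member. It had 1432, 1351 and 1327 CPM in BCP, against 1185, 1349 and 938 CPM in sham. Sham-operated rat 2 was above BCP rat 3, so the groups overlapped, and the log2 fold change was 0.24 (SE 0.139, adjusted p = 0.538, edgeR QL). rno-miR-93-5p, the guide of hairpin miR-93, had 378, 372 and 344 CPM against 335, 323 and 298 CPM. Its groups did not overlap, but the log2 fold change was 0.19 (SE 0.107, adjusted p = 0.52). Without sham-operated rat 3, the sham library with the lowest level of both guides, the log2 fold change was 0.08 for rno-miR-25-3p and 0.12 for rno-miR-93-5p. With rno-miR-363-3p and rno-miR-20b-5p this made 3 of 8 tested members whose groups did not overlap with BCP higher, against 13.3% of all tested miRNAs.

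In hairpin miR-106b the arm that carries a seed of the family was the less abundant one. rno-miR-106b-3p, the other arm, had 147, 136 and 135 CPM in BCP, against 144, 167 and 118 CPM in sham. Its log2 fold change was -0.04 (SE 0.145, adjusted p = 0.951, edgeR QL). rno-miR-106b-5p, the arm with the seed of rno-miR-20b-5p, had 28.2, 35.2 and 38.2 CPM against 25.3, 20.1 and 37.0 CPM. Sham-operated rat 3 was above both of the other sham-operated rats and above BCP rats 1 and 2. The log2 fold change of 0.30 (SE 0.231, adjusted p = 0.648, edgeR QL) was 0.54 without that rat, 0.11 without sham-operated rat 2, 0.19 without BCP rat 3 and 0.11 with the GC trend removed. With each rat left out the adjusted p lay between 0.129 and 0.995 (edgeR QL). The passenger arm rno-miR-25-5p had 12.8, 10.1 and 9.49 CPM in BCP, against 15.6, 17.4 and 10.4 CPM in sham. The groups overlapped in sham-operated rat 3, and the log2 fold change was -0.42 (SE 0.217, adjusted p = 0.474, edgeR QL), -0.64 without that rat and -0.27 without sham-operated rat 2. rno-miR-93-3p, the passenger arm of hairpin miR-93, had 8.99, 7.59 and 7.08 CPM in BCP, against 10.0, 9.27 and 8.36 CPM in sham. It overlapped too, with a log2 fold change of -0.22 (SE 0.156, adjusted p = 0.62, edgeR QL) and of -0.35 without BCP rat 1.

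**Figure D2:**
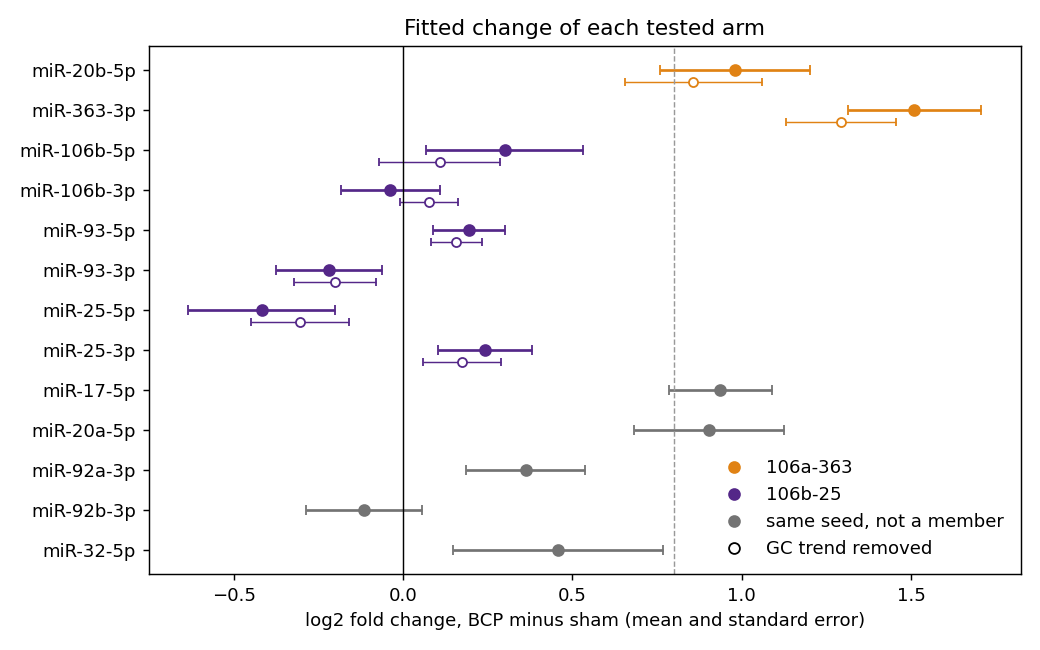
Log2 fold change of BCP against sham-operated rats (points) with its SE (bars) for the 8 tested members and 5 miRNAs with the same seeds. Filled points are the reported fit, open points the fit with the GC trend removed, and the dashed line marks 0.8. miR-20b-5p and miR-363-3p lie at 0.98 and 1.51, and the 6 arms of miR-106b-25 between -0.42 and 0.30.

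Reads of miR-106a-363 were compared with those of miR-106b-25 within each library, a ratio that does not depend on library size. Only the arms of miR-20b and miR-363 were counted for miR-106a-363. The names that it shares with miR-17-92 (rno-miR-17-5p, rno-miR-19b-3p and rno-miR-92a-3p), whose reads cannot be assigned to a locus, summed to 1986 ± 98.0 CPM in BCP and 1488 ± 322 CPM in sham, beside 1927 ± 73.8 and 1670 ± 241 CPM for miR-106b-25 (SD, n = 3 each), so the total output of the clusters was not compared. For each 1000 reads of miR-106b-25 there were 12.2, 18.8 and 21.1 reads of miR-106a-363 in BCP, against 7.36, 6.70 and 8.49 in sham. The groups did not overlap. The log2 ratio differed by 1.18 between the group means (SD 0.42 in the BCP rats and 0.172 in the sham-operated rats, n = 3 each), which is 2.26-fold, and by 1.02 to 1.41 with a rat left out. No p is given for this ratio, which sums over members chosen with earlier results known. rno-miR-363-3p made up 80.4% to 87.7% of the miR-106a-363 reads and rno-miR-25-3p 66.5% to 71.5% of the miR-106b-25 reads, so the ratio was close to that of these 2 guides. There were 1.47, 2.34 and 2.59 reads of rno-miR-363-3p for each 100 of rno-miR-25-3p in BCP, against 0.888, 0.765 and 1.03 in sham. With each tested arm given equal weight, the mean log2 fold changes of the clusters differed by 1.23, and by 1.07 with the GC trend removed.

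The matched pair rno-miR-20b-5p and rno-miR-106b-5p, 1 from each cluster with the same seed, was tested on its own, as a single value, although it too was chosen with earlier results known. There were 10.1, 11.1 and 10.4 reads of rno-miR-20b-5p for each 100 of rno-miR-106b-5p in BCP, against 7.41, 8.52 and 4.88 in sham. The BCP and sham ranges did not overlap. The mean log2 ratio was higher by 0.64 (p = 0.1 in a two-sided exact permutation test, the minimum for 3 rats against 3), so the test could not reach 0.05. Without sham-operated rat 3 the difference was 0.41, and with the GC trend removed it was 0.75. Any misassigned reads of rno-miR-20b-5p would enter this ratio too.

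**Figure D3:**
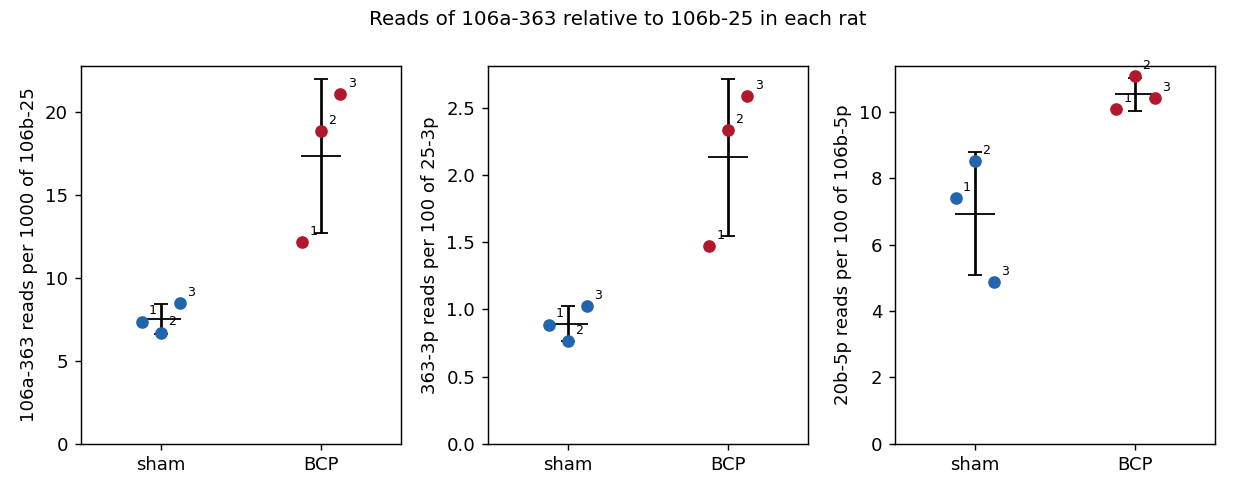
Reads of miR-106a-363 per 1000 reads of miR-106b-25 (left), of miR-363-3p per 100 of miR-25-3p (middle) and of miR-20b-5p per 100 of miR-106b-5p (right), by group. Points are rats, numbered by replicate, and black marks are the mean and SD of 3 rats. In all 3 panels the lowest BCP point lies above the highest sham point, by 12.2 against 8.49, 1.47 against 1.03 and 10.1 against 8.52 reads.

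The weight of the members among all reads with their seed was then computed. Among entries with a RefSeq sequence, 5 names had the seed of rno-miR-20b-5p, namely rno-miR-20b-5p, rno-miR-106b-5p, rno-miR-93-5p, rno-miR-17-5p and rno-miR-20a-5p. Together they had 814 ± 68.4 CPM in the BCP rats and 565 ± 34.2 CPM in the sham-operated rats (SD, n = 3 each). rno-miR-93-5p held the largest share in every rat, 51.4%, 43.1% and 40.8% in BCP, against 58.4%, 61.2% and 50.2% in sham. BCP rat 1 was above sham-operated rat 3, so these shares overlapped. rno-miR-20b-5p held between 0.304% and 0.473% of these reads in all 6 libraries and rno-miR-106b-5p between 3.8% and 6.22%. The other reads were those of rno-miR-20a-5p, of miR-17-92, and of rno-miR-17-5p, whose sequence both miR-17-92 and the miR-106a hairpin encode. rno-miR-17-5p had a log2 fold change of 0.94 (SE 0.152, adjusted p = 0.0128, edgeR QL) and was called, and rno-miR-20a-5p had 0.90 (SE 0.222, adjusted p = 0.0683).

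The seed of rno-miR-363-3p was shared by rno-miR-25-3p, rno-miR-92a-3p, rno-miR-92b-3p and rno-miR-32-5p. Their summed level was 5248 ± 467 CPM in the BCP rats and 4799 ± 996 CPM in the sham-operated rats (SD, n = 3 each). Although rno-miR-363-3p was called, it held a small part of these reads, with 0.366%, 0.613% and 0.71% in BCP, against 0.214%, 0.18% and 0.257% in sham. rno-miR-25-3p held between 23.6% and 27.4%. Of the 5 names with this seed, rno-miR-363-3p was the 1 called, and the adjusted p of the other 4 lay between 0.442 and 0.812 (edgeR QL).

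**Figure D4:**
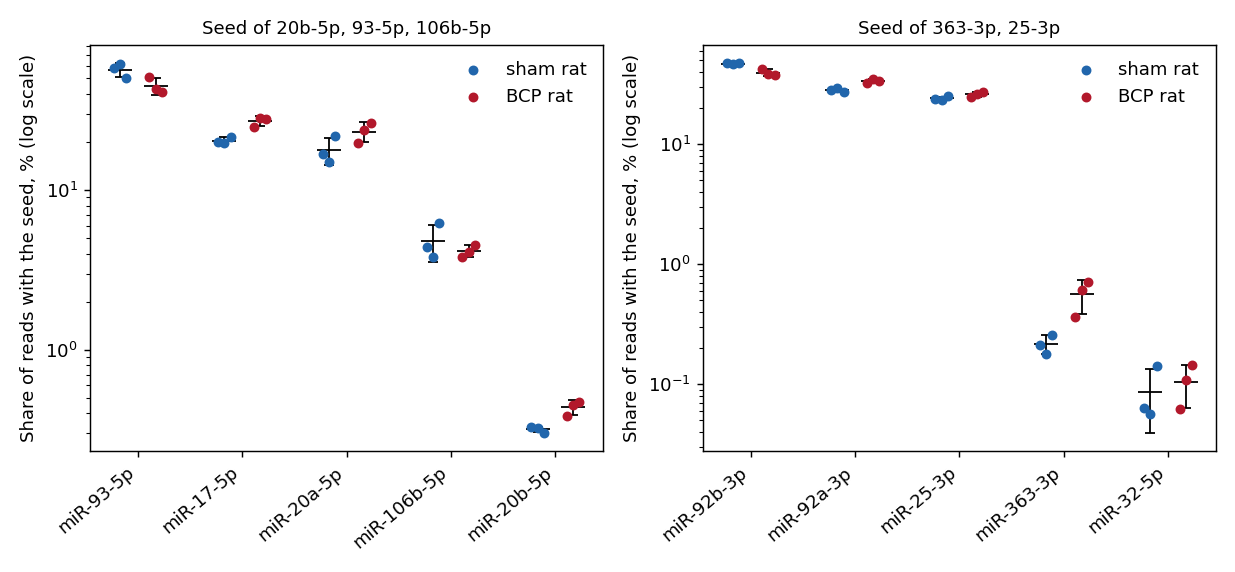
Share of the reads with a given seed (percent, log axis) that each miRNA held in every rat, with BCP rats in red, sham-operated rats in blue and black marks for the mean and SD of 3 rats. miR-363-3p held 0.18% to 0.257% in sham and 0.366% to 0.71% in BCP rats, while miR-93-5p and miR-25-3p held 40.8% to 61.2% and 23.6% to 27.4%.

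The order of levels among the members shifted at a single place. In the sham-operated rats rno-miR-363-3p, at 10.2 ± 0.47 CPM (SD, n = 3 rats), lay between rno-miR-25-5p (14.5 ± 3.65 CPM) and rno-miR-93-3p (9.22 ± 0.832 CPM). Its values overlapped with those of both neighbours. In the BCP rats it reached 29.0 ± 7.0 CPM, above every value of rno-miR-25-5p (10.8 ± 1.75 CPM) and overlapping with rno-miR-106b-5p (33.9 ± 5.15 CPM). The order of the others was the same in both groups. rno-miR-25-3p was followed by rno-miR-93-5p, rno-miR-106b-3p and rno-miR-106b-5p, without overlap between neighbours in the rats of either group. rno-miR-20b-5p was the lowest of the 8 tested members in both. Levels of different miRNAs can also differ by how well each is captured in the library, which was not tested.

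The balance of the arms within each hairpin was compared, since both arms come from 1 precursor. The 5p arm took 97.7% to 98.0% of the reads of hairpin miR-93 in the BCP rats and 97.1% to 97.3% in the sham-operated rats, and the groups did not overlap. In hairpin miR-25 the 5p arm took 0.71% to 0.884% in the BCP rats and 1.09% to 1.30% in the sham-operated rats, again without overlap. In these hairpins the guide thus held more of the reads in every BCP rat than in any sham-operated rat. How often arm shares differ without overlap among all hairpins was not computed, so nothing particular to these hairpins is read from it. In hairpin miR-106b the 5p share was 16.1%, 20.6% and 22.1% in BCP, against 15.0%, 10.7% and 23.8% in sham. It overlapped, and the highest and the lowest share were both in sham-operated rats. In hairpin miR-20b it was 81.8% to 92.9% over all 6 rats, on few 3p reads. In hairpin miR-363 it was 0.401% to 0.549% in BCP and 0.68% to 3.09% in sham, without overlap, but on 1 to 5 reads of the 5p arm per library.

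The arms of these hairpins also differ in GC content. The arms rno-miR-25-5p and rno-miR-106b-3p had 63.6% GC, rno-miR-93-3p 56.5%, rno-miR-93-5p 52.2%, rno-miR-25-3p 50%, rno-miR-20b-5p 47.8%, and rno-miR-106b-5p and rno-miR-363-3p 42.9%. Relative to the other sham-operated rats, sham-operated rat 3 was higher by 0.71 on the log2 scale for rno-miR-106b-5p and lower for rno-miR-106b-3p (-0.39) and rno-miR-25-5p (-0.67). Sham-operated rat 2 deviated the other way, by -0.61, 0.36 and 0.45 for the same arms. rno-miR-363-3p, which has the GC content of rno-miR-106b-5p, deviated little in these sham-operated rats, by -0.11 in rat 3 and 0.04 in rat 2. Among the BCP rats it deviated in the same direction as rno-miR-106b-5p, by -0.64 in rat 1 (-0.38 for rno-miR-106b-5p), 0.23 in rat 2 (0.10) and 0.41 in rat 3 (0.28). rno-miR-20b-5p deviated by -0.46, 0.21 and 0.25 in the same rats. With the GC trend removed, the log2 fold changes of the 5p and 3p arms were 0.11 and 0.08 for hairpin miR-106b. They were 0.16 and -0.20 for miR-93, and -0.30 and 0.17 for miR-25. Beyond this fit, the part of GC content in the arm differences was not tested.

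**Figure D5:**
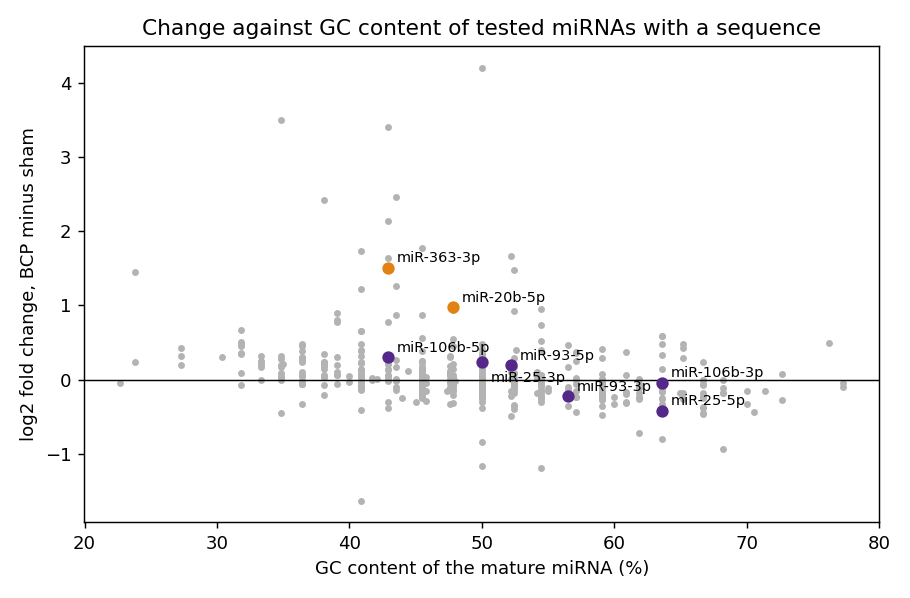
Log2 fold change of BCP against sham-operated rats against the GC content of the mature miRNA, for the 427 tested miRNAs with a RefSeq sequence (grey) and the 8 tested members (orange miR-106a-363, purple miR-106b-25). miR-363-3p and miR-106b-5p, both at 42.9% GC, lie at 1.51 and 0.30.

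Among the arms of miR-17-92 that the table lists, including names shared with chromosome X, 8 of 12 passed the filter and 3 of the 8 were called higher, against 3.49% of all tested miRNAs. The fitted change was above 0 for all 8, against 225 of all 459 tested miRNAs. The called ones were rno-miR-17-5p, rno-miR-17-1-3p (log2 fold change 0.95, adjusted p = 0.0327, edgeR QL) and rno-miR-18a-3p (1.48, adjusted p = 0.00998). The 8 had a median log2 fold change of 0.94. The miRNAs nearest in pattern to rno-miR-20b-5p, by the root mean square difference of centred log2 CPM over 6 libraries, were rno-miR-27a-3p (0.0777), rno-miR-17-5p (0.0839) and rno-miR-7a-1-3p (0.184). Nearest to rno-miR-106b-5p were rno-miR-24-2-5p (0.0875), rno-miR-195-5p (0.0986) and rno-miR-30a-5p (0.112), so neither of the pair was among the 3 nearest to the other. For rno-miR-363-3p, added after the values were seen, they were rno-miR-200c-3p (0.272), rno-miR-20b-5p (0.275) and rno-miR-18a-3p (0.289). The measure includes the size of the group difference, so these lists partly restate the fold changes and are no separate evidence.

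Markers of other cell types moved with the group in part. Of the 4 erythroid markers listed, miR-451-5p, miR-144-3p and miR-144-5p were listed at 0 in all libraries, as were miR-142-3p and miR-142-5p of leukocytes, and miR-486 was not matched to a name. Of all 753 listed names 150 were at 0. Whether such names were absent or missed in counting was not tested, so a 0 is not read as absence of these cells. miR-223-3p of myeloid cells rose (log2 fold change 2.13, adjusted p = 0.019, edgeR QL), while the summed level of the 4 myeloid and lymphoid markers, mostly miR-150-5p, was 975 to 1283 CPM in the BCP rats and 1090 to 1379 CPM in the sham-operated rats. The sum of the 5 epithelial miR-200 family markers was 13.3 to 15.7 CPM against 6.35 to 8.02 CPM, with miR-200c-3p called (log2 fold change 1.63, adjusted p = 0.00556, edgeR QL). Without miR-200c-3p the other 4 summed to 3.22 ± 0.174 CPM in BCP and 3.20 ± 0.74 CPM in sham (SD, n = 3 each), which overlapped, with log2 fold changes of -0.23 for miR-200b-3p (adjusted p = 0.777, edgeR QL) and 0.50 for miR-200a-3p (adjusted p = 0.546), whose groups did not overlap. The sums of the 3 muscle markers overlapped. Their part in the difference of rno-miR-363-3p was not tested.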

How the data were processed

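The authors filtered the reads with the FASTX Toolkit and mapped clean reads of 18 to 40 nucleotides to Rnor_6.0 with Bowtie (Bowtie2 2.2.3 in the submitters' processing notes). They identified known miRNAs by miRBase 22 and by length, which the study gives as 21 to 22 nucleotides. In RefSeq rno-miR-20b-5p and rno-miR-93-5p have 23 nucleotides, and rno-miR-106b-5p and rno-miR-363-3p have 21. How reads outside the stated length were counted is not given. The deposited values are raw read counts, and 0 columns lacked a sample. The main test was edgeR's (4.0.16, under R 4.3.3) quasi-likelihood F-test after filterByExpr with a minimum count of 10 and TMM normalization, and p-values were adjusted by Benjamini-Hochberg over all 459 tested miRNAs. Standard errors came from the log2 fold change and the F statistic. Alternatives used DESeq2 1.42.0, limma 3.58.1, other filters and normalizations, a replicate block and leaving out each rat. The fit with GC trend removed subtracts, per library, a loess curve of log2 deviations on GC content. It covers the 427 tested miRNAs with a RefSeq sequence, and its p-values were adjusted over these. On simulated data for this comparison, with 30 of 459 miRNAs changed by 1.5 on the log2 scale, 29 were recovered and 1 other was called. The simulation gave all miRNAs the same dispersion and had no GC trend. It does not give the sensitivity to smaller changes, such as those of rno-miR-20b-5p and the miR-106b-25 arms. The members and lists were chosen with earlier results of these data known. Named miRNAs were the members, other arms of miR-106a-363, miR-17-92 arms, names sharing a guide's seed and the 3 nearest in pattern. miR-17-2-3p was added after its annotation was seen. Sequences are RefSeq's (GRCr8), found for 687 of 753 names. Libraries of a group differed by a chi-square of at least 59.0 per degree of freedom, so none was a copy. The study calls the libraries of a group biological replicates, and p-values measure the spread between them.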

Additional observations from a re-analysis of the deposited data

How the results depend on the processing

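Leaving out each rat gave 8 to 20 called miRNAs in all (8 without BCP rat 2, 9 without sham-operated rat 1, 10 without BCP rat 3, against 16), 1 to 2 called members, a difference in the log2 ratio of the clusters of 1.02 to 1.41, and one of 0.41 to 0.81 for rno-miR-20b-5p to rno-miR-106b-5p. The likelihood ratio test called 25 miRNAs and 2 members, and the fit with the GC trend removed, chosen after seeing the data, also 2 members. The second member was rno-miR-20b-5p each time. Its adjusted p lay between 0.00769 and 0.0911 over the settings that kept all rats. rno-miR-106b-3p (log2 fold change -0.037) changed sign, to 0.0845 without sham-operated rat 2 and to 0.0774 with the GC trend removed, with a range of -0.187 to 0.0845 over the left-out rats. The cause of these changes was not tested. Same-numbered libraries of the groups come from differently treated animals, and their deviations correlated by -0.0496, -0.429 and 0.584, so the numbers were not taken as pairs. With the replicate block 18 miRNAs were called, 1 of them a member. Over the single members and settings, 123 results kept direction and side of the threshold, 3 (rno-miR-20b-5p) newly passed it and 2 (rno-miR-106b-3p) changed sign. Adding rno-miR-17-2-3p, also after seeing the data, gave a cluster difference of 1.15. Depth limits rno-miR-20b-5p, rno-miR-20b-3p and rno-miR-363-5p, which rest on few reads.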
